A study of Caenorhabditis elegans with 9 samples.

Results

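The libraries described here are those in which RPOA-2 was targeted in the hypodermis of Caenorhabditis elegans, set against controls of the same time. The 3 hypodermal depletion libraries came from animals with the genotype degron::GFP::rpoa-2 and col-10p::TIR1, on plates with 1 mM IAA, at 24 h. The 2 controls at 24 h carried degron::GFP::rpoa-2 and no TIR1, and their plates held no IAA. A gene was included if it was listed in at least 2 of these 5 libraries, which held for 10941 of the 13246 genes listed anywhere in the 9 libraries of the series. Another 1674 genes were listed in exactly 1 of the 5 and are left out. The other 4 libraries serve as side values: 2 of global depletion (degron::GFP::rpoa-2 with eft-3p::TIR1, 1 mM IAA, 24 h) and 2 of the control genotype without IAA at 18 h. All animals were grown at 16 °C and started as synchronized eggs. By the labels whole worms were taken, although titles and treatments speak of embryos, and the stage at harvest is left unsaid. The tagged rpoa-2 allele is shared by all 4 groups. TIR1 and IAA were present in both depletions and absent from both controls, so their own effects cannot be told apart from those of losing RPOA-2. The degron is a tag through which TIR1, a plant protein, has a target destroyed when the auxin IAA is supplied. The col-10 promoter restricts TIR1 to the hypodermis and the eft-3 promoter drives it in most somatic cells.

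RNA polymerase I transcribes the precursor of the large ribosomal RNAs in the nucleolus, and RPOA-2 is one of its catalytic core subunits. The hypodermis is the worm's epidermis. It secretes the collagens of the cuticle anew for every molt, through waves of gene expression that rise and fall with the molting cycle, and it also stores fat and exchanges signals with the intestine, muscle and neurons. Whole-animal RNA mixes the hypodermis with the tissues it covers. In such RNA, fewer cells of a type and less RNA per cell cannot be told apart.

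Library totals ran from 781648 to 2134185 counts in hypodermal depletion, against 324321 and 506659 counts in the 24 h controls. The file lists no count below 3, so an unlisted gene had 0 to 2 counts. With the scaling used here (CPM, a count as a share of its library's total with TMM factors applied), 3 counts stood for 1.45, 2.01 and 3.88 CPM in the hypodermal libraries and for 9.55 and 6.04 CPM in the 24 h controls. These floors cover counting error only. Of the included genes, 851 were listed in all 3 hypodermal libraries and in neither 24 h control, while 28 were listed in both 24 h controls and in no hypodermal library. Ribosomal RNA was removed before the libraries were made, so the product of RNA polymerase I itself was not measured. Whether the libraries of a group were grown as separate cultures is not stated, so the p-values rest on a spread among these samples that may be technical. Leaving out hypodermal library 2 or either 24 h control lost the most calls, and for most named genes the text gives the libraries without which the call was lost.

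A filter on low counts left 8013 of the 10941 genes for testing, and 2928 were not tested. Of those tested, 405 (5.05%) passed an edgeR quasi-likelihood test at a Benjamini-Hochberg adjusted p below 0.05, 133 (1.66%) higher and 272 (3.39%) lower in hypodermal depletion. Without hypodermal library 2 the counts were 75 higher and 179 lower, without 24 h control 1 they were 69 and 200, and without 24 h control 2 they were 65 and 225. Unlisted counts entered the fit as 1. With 0 in their place 116 genes were higher and 133 lower, and with every library thinned to the smallest total 48 were higher and 87 lower. The median log2 fold change of all tested genes was 0.03. Groups that did not overlap were much more common than calls, with 1495 genes (18.7%) wholly higher and 1313 (16.4%) wholly lower in the hypodermal libraries. Among called genes, all 133 higher and 268 of the 272 lower did not overlap, so a lack of overlap adds little to a call. Of the genes called higher, 24 were unlisted in both 24 h controls, and of those called lower, 19 were unlisted in all 3 hypodermal libraries. Genes that owe their place in the test to the group where they are high had to differ, so such genes are given below as lower bounds. The genes were described with 68 lists by tissue or family, 4 of them added after their values were seen. Of the 272 genes called lower, 58 belonged to lists of the hypodermis, 55 to other lists and 159 to none. Of the 133 called higher, 5 belonged to hypodermal lists, 53 to others and 75 to none. The share of all tested genes in each of these classes was not worked out, so the counts show no excess in any class. The lists were also chosen with earlier results of these data known.

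**Figure D1:**
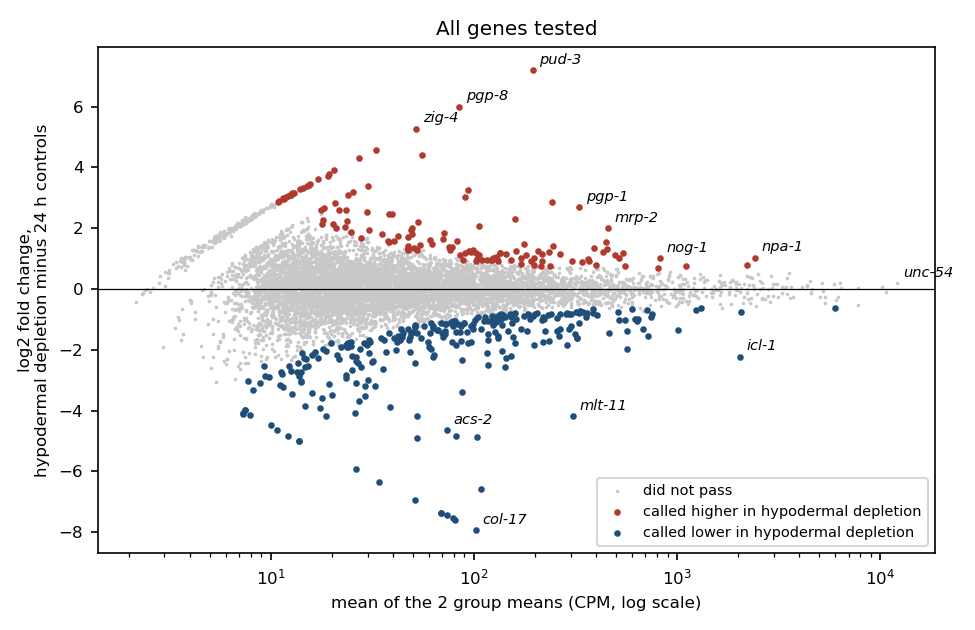
Each point is 1 of the 8013 genes tested, with the mean of the 2 group means in CPM on a log scale across and the fitted log2 fold change of hypodermal depletion over the 24 h controls upwards. The 133 genes called higher are red, the 272 called lower are blue and the rest are grey. The narrow diagonal of rising points at the left holds genes unlisted in both 24 h controls.

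The mRNA of the targeted gene is no check of the depletion, since the degron acts on the protein. The rpoa-2 gene (chromosome I, 9280963 to 9286577, build WBcel235, as for all positions below) had 290.4, 279 and 238 CPM in hypodermal depletion, against 156 and 259.7 CPM in the 24 h controls. The groups overlapped, and the estimate of 0.35 (SE 0.23, edgeR adjusted p = 0.47) did not pass. The col-10 gene, whose promoter drove TIR1 here, encodes a cuticle collagen. It had 443, 416 and 445 CPM in hypodermal depletion, against 1006 and 709 CPM in the 24 h controls, and it fell by 0.97 on the log2 scale (SE 0.20, adjusted p = 0.000962), though the call was lost without 24 h control 1 (adjusted p = 0.0642).

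Of the 68 lists, the cuticle collagens held the most falls. Of 79 collagens 63 were tested, and of these 32 were lower and 3 higher, with a median log2 fold change of -1.39 against 0.03 over all genes. Of the 63, 13 were unlisted in every library of 1 of the groups. The collagen col-17 and the body-shape collagens dpy-13 and sqt-2 were unlisted in all 3 hypodermal libraries. They were at least 83.3-fold, 66.04-fold and 27.5-fold lower than in the 24 h controls. Another body-shape collagen, sqt-1, was unlisted in hypodermal library 1 and had 2.68 and 5.18 CPM in the other 2, against 181 and 248 CPM in the 24 h controls (a log2 fold change of -6.57, SE 0.49, edgeR adjusted p = 4.85e-14). The level of dpy-13 also differed between control times, with 118 and 205 CPM at 24 h and 49.3 and 18.1 CPM at 18 h (24 h minus 18 h, edgeR adjusted p = 0.0107, in a comparison that called 3.04% of genes). Without 24 h control 2 the collagens called higher numbered 1. The 3 collagens called higher, col-165, col-74 and dpy-17, were all unlisted in the 24 h controls, so they could only be called higher. They were at least 6.67-fold, 4.08-fold and 2.50-fold higher in hypodermal depletion. The col-74 call was lost without 24 h control 2 (adjusted p = 0.103), and that of dpy-17 was lost when any single hypodermal, global or 24 h control library was left out (adjusted p from 0.0548 to 0.33). The gene col-165 had 42.4, 67 and 46.6 CPM in hypodermal depletion, beside 113 and 103 CPM in the 18 h controls.

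Genes of the apical matrix that shapes each new cuticle, and of the molt, also held falls. Of 17 apical matrix genes, 9 were lower and 1 was higher, and of 19 molting genes 5 were lower and 1 was higher. Without 24 h control 2 those falls numbered 5 and 3. The lipocalin gene lpr-3, which organizes the apical matrix, had 3.37, 2.68 and 3.88 CPM in hypodermal depletion, against 124 and 78.5 CPM in the 24 h controls (a log2 fold change of -4.89, SE 0.56, adjusted p = 9.46e-09). Its relative lpr-5 had 2.89, 3.35 and 9.06 CPM in hypodermal depletion, against 63.7 and 42.3 CPM in the 24 h controls (-3.51, SE 0.58). The protease inhibitor gene mlt-11, needed to finish a molt, was still listed in every hypodermal library at 43.3, 25.5 and 24.6 CPM, against 551 and 622 CPM in the 24 h controls (-4.17, SE 0.26, adjusted p = 1.19e-16). The other molting genes called lower were mlt-8 (-3.19), mlt-10 (-2.57), sym-1 (-2.12) and the neprilysin protease gene nep-1 (-2.16). The mlt-8 call was lost without 24 h control 2 (adjusted p = 0.0604), and that of nep-1 without hypodermal library 1 or 2 or either 24 h control (adjusted p from 0.0541 to 0.137). The 2 that went the other way were cpl-1, a cathepsin L gene given with the proteases, and dex-1, a matrix gene of dendrites and seam cells, at 1.57. The dex-1 call was lost without hypodermal library 1 or 2, global library 1 or 24 h control 2 (adjusted p from 0.0516 to 0.485).

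Hedgehog-related genes encode secreted proteins of the epidermis, in a worm that lacks a hedgehog pathway of the usual kind. Of 31 tested, 9 were lower and none was higher, and 5 were lower without 24 h control 2. The gene wrt-10 was unlisted in all hypodermal libraries, against 63.7 and 40.3 CPM in the 24 h controls, and so at least 21.2-fold lower. The gene grl-7 had 6.74, 3.35 and 3.88 CPM in hypodermal depletion, against 54.1 and 90.6 CPM in the 24 h controls (-3.87, SE 0.56, adjusted p = 2.3e-06). The molt timing gene lin-42, a period homologue, had 19.7, 10.1 and 14.2 CPM in hypodermal depletion, against 178 and 143 CPM in the 24 h controls (-3.40, SE 0.36). None of these 3 overlapped between the groups, as held for 268 of the 272 genes called lower. Most genes listed as hypodermal regulators, junction genes or seam cell genes did not pass, as held for all genes, of which 5.05% were called. Of 18 regulators and junction genes of the hypodermis none passed in edgeR or DESeq2, with log2 fold changes from -0.27 to 1.20 and a median of 0.06. An unadjusted p below 0.05 was found for 4 of them, all higher. Of 6 genes listed for seam cells only grd-13, already counted among the 9 hedgehog-related falls, was called lower (-1.68). Its call was lost without 24 h control 2 (adjusted p = 0.712). The fibrous organelle gene mua-3, which ties hypodermis and muscle to the cuticle and was chosen after its values were seen, rose to 563, 501 and 392 CPM in hypodermal depletion, against 210.1 and 302 CPM in the 24 h controls (0.91, SE 0.23, adjusted p = 0.00957). That call was lost without hypodermal library 1 or 2 or 24 h control 1 (adjusted p from 0.0525 to 0.301).

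Most genes that mark tissues under the hypodermis did not pass the test, as held for all genes, of which 5.05% were called. Of 56 genes of the body wall muscle sarcomere and its attachments none passed in edgeR, with a median log2 fold change of 0.07 and a range from -0.50 to 1.08. The myosin heavy chain gene unc-54 had 14596, 13087 and 11037 CPM in hypodermal depletion, against 10006 and 12670.4 CPM in the 24 h controls, and the groups overlapped (0.19, SE 0.19). DESeq2 called 1 muscle gene lower, and an unadjusted p below 0.05 was found for 1 higher and 3 lower. None of 12 pharyngeal muscle genes, 9 pharyngeal gland genes, 59 genes of ciliated sensory neurons, 20 genes of the excretory system or 5 coelomocyte genes passed in edgeR or DESeq2. Their median log2 fold changes were -0.16, -0.33, 0.10, 0.16 and -0.29, in the same order. Unadjusted p-values below 0.05 were found for 2 pharyngeal muscle, 2 gland, 7 ciliated neuron, 4 excretory and 0 coelomocyte genes. In edgeR 1 body wall muscle gene was lower without hypodermal library 1 and 1 was higher without 24 h control 2, and 1 pharyngeal muscle gene was lower without hypodermal library 1, global library 2 or 24 h control 1. A count of 0 does not show that the genes of a list were level. Vitellogenin genes, which adult intestine expresses, had 0 members.

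Of the pan-neuronal, neurotransmitter and neuropeptide lists 3.17%, 2.27% and 1.82% were called, all lower, beside 3.39% of all genes called lower. The zig genes, also neuronal, held 2 rises, both of genes unlisted in the 24 h controls, and are described after the secreted proteins. Of 63 pan-neuronal and synaptic vesicle genes 2 were lower: unc-11, a clathrin adaptor that recycles synaptic vesicles, and unc-51, an autophagy kinase that axons also need. The gene unc-11 had 108, 79.7 and 62.2 CPM in hypodermal depletion, against 127 and 201 CPM in the 24 h controls (-0.97, SE 0.27, adjusted p = 0.0234), and unc-51 was at -0.83 (SE 0.23). Both calls were fragile. They were lost without hypodermal library 2 or 3 or 24 h control 2, and that of unc-51 also without 24 h control 1 (adjusted p from 0.0693 to 0.379). Of 44 neurotransmitter genes the muscarinic receptor gene gar-2 was lower (-1.08), though not without hypodermal library 2 or 24 h control 2 (adjusted p = 0.0714 and 0.26). Of 55 neuropeptide and insulin-like genes nlp-77 was lower. It had 205, 214 and 205 CPM in hypodermal depletion, against 471 and 431 CPM in the 24 h controls (-1.11, SE 0.22, adjusted p = 0.00041), and this call held whichever library was left out. Among 12 glial genes vap-1, a secreted amphid sheath protein, was lower (-1.21), though not without hypodermal library 2 or 24 h control 1 (adjusted p = 0.074 and 0.155). In the 18 h controls its level lay within or below the range of hypodermal depletion.

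Of 14 abu and pqn genes, which encode repeat proteins laid down in the pharyngeal cuticle, abu-11 and pqn-32 were lower and none was higher. The gene pqn-32 had 14.9, 4.02 and 10.4 CPM in hypodermal depletion, against 47.8 and 58.4 CPM in the 24 h controls (-2.41, SE 0.51, adjusted p = 0.00133). The abu-11 call (-2.53) was lost without hypodermal library 2 or 3 or 24 h control 1 (adjusted p from 0.0649 to 0.247). Of 29 germ line and early embryo genes 2 were higher, the RNA-binding gene mex-3 (1.58) and skn-1 (0.91), which encodes a transcription factor of the oxidative stress response that also acts in the intestine. The gene mex-3 was unlisted in 24 h control 1 and had 17 counts in 24 h control 2. Neither call held without 24 h control 1 (adjusted p = 0.469 and 0.323), and that of mex-3 was lost as well without hypodermal library 1 or 2 (0.126 and 0.189).

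**Figure D2:**
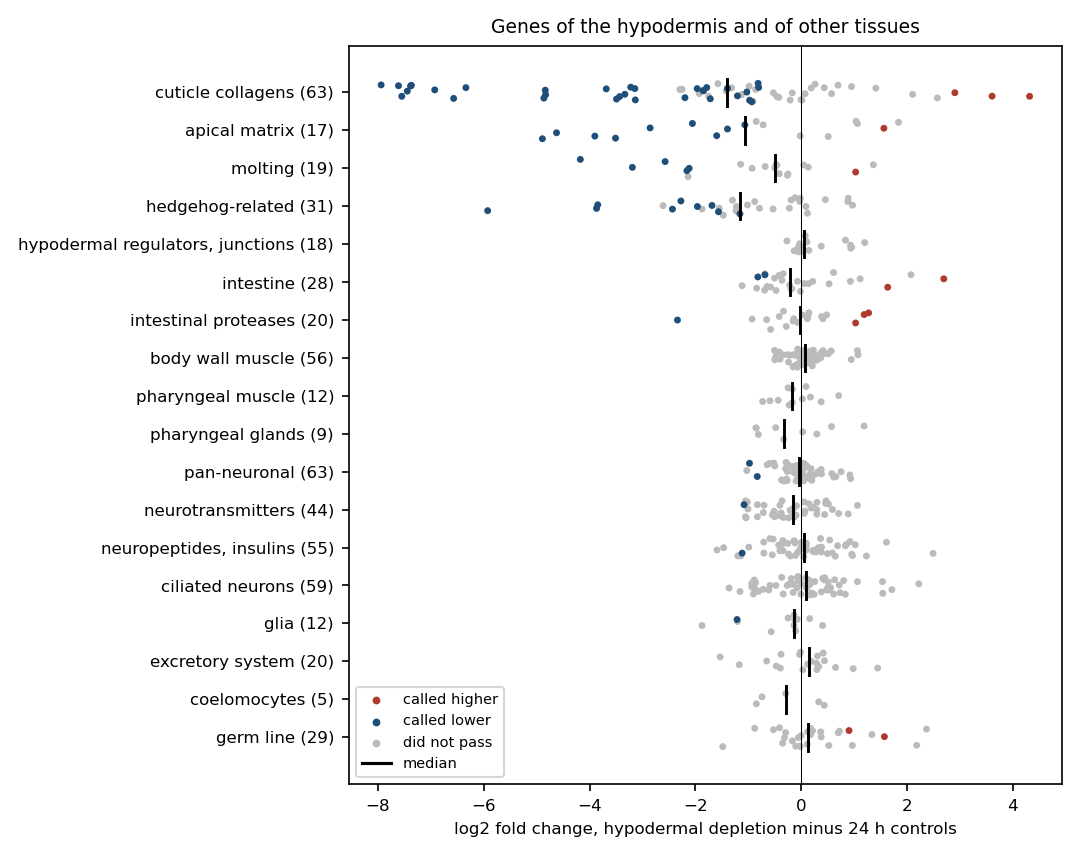
Each point is a gene, placed by its log2 fold change of hypodermal depletion over the 24 h controls, with lists of the hypodermis at the top and other tissues below and the number of tested genes in brackets. Red and blue mark genes called higher and lower, grey those that did not pass, and black bars the medians. Blue points are dense in the collagen, apical matrix, molting and hedgehog-related lists, and the muscle, ciliated neuron, excretory and coelomocyte lists hold none.

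Most genes known as markers of the intestine did not pass, though 14.3% of the 28 tested were called, beside 5.05% of all genes. An unadjusted p below 0.05 was found for 10 of the 28, with 3 higher and 7 lower. The RNA came from whole worms, so no value here places a change in 1 tissue. Of 28 genes of intestinal identity and the brush border, ifb-2 and ifo-1, an intermediate filament and its organizer, were lower, and the transporter gene pgp-1 and the cadmium response gene cdr-4 were higher. The gene ifb-2 had 879, 856 and 1115 CPM in hypodermal depletion, against 1675 and 1375 CPM in the 24 h controls (-0.68, SE 0.19). Its call was lost without hypodermal library 2 or 24 h control 1 (adjusted p = 0.126 and 0.174), that of ifo-1 (-0.82) without hypodermal library 3 or 24 h control 2 (0.0808 and 0.102) and that of cdr-4 (1.64) without 24 h control 2 (0.376).

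Of 20 cysteine and aspartyl proteases, which digest food and lysosomal cargo in the intestine, asp-4, asp-13 and cpl-1 were higher and asp-12 was lower. Of these, cpl-1 is also in the list of molting genes. Without 24 h control 1 none of the 3 rises was called (adjusted p = 0.194, 0.0639 and 0.296), and that of asp-13 was lost also without hypodermal library 2 or 3 or 24 h control 2 (adjusted p from 0.152 to 0.468). The cathepsin L gene cpl-1 had 603, 742 and 746 CPM in hypodermal depletion, against 248 and 423 CPM in the 24 h controls (1.03, SE 0.24, adjusted p = 0.00498). The aspartyl protease gene asp-12 had 24.6, 26.1 and 37.6 CPM in hypodermal depletion, against 162 and 129 CPM in the 24 h controls (-2.34, SE 0.35, adjusted p = 4.19e-06), and it held under every alternative. Its levels in the 18 h controls lay on both sides of those in hypodermal depletion. The gene npa-1, chosen after its values were seen, encodes a nematode polyprotein that binds lipids. It had 3228, 3287 and 3316 CPM in hypodermal depletion, against 1528 and 1669 CPM in the 24 h controls, a rise of 1.03 (SE 0.19, adjusted p = 0.000196) and the groups did not overlap. The gene dct-16, likewise chosen after its values were seen, had 478, 686 and 789 CPM in hypodermal depletion, against 283 and 236 CPM in the 24 h controls (1.33, SE 0.25).

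Among 41 C-type lectins, sugar-binding proteins that often respond to microbes, 4 were lower and 1 was higher. The higher one, clec-57, had 4 counts in 24 h control 1 and was unlisted in 24 h control 2. The gene clec-67 had 147, 133 and 175 CPM in hypodermal depletion, against 404 and 350.3 CPM in the 24 h controls (-1.32, SE 0.21, adjusted p = 2.25e-05). The gene clec-1 had 39.97, 56.3 and 29.8 CPM in hypodermal depletion, against 131 and 161 CPM in the 24 h controls (-1.77, SE 0.30). Neither pair of groups overlapped, and both calls held under every alternative. The calls of clec-52 (-1.12) and clec-42 (-1.34) were lost without 24 h control 1 (adjusted p = 0.138 and 0.247), and clec-42 also without hypodermal library 1 (0.0653). The single rise, clec-57 (2.59), was lost without hypodermal library 2 or 3 or 24 h control 2 (adjusted p from 0.051 to 0.371). Of 20 lysozyme and saposin-like genes spp-17 was called higher (0.76), though not without hypodermal library 2 or either 24 h control (adjusted p from 0.0779 to 0.394). Without hypodermal library 1, 3 genes of this list were higher.

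In fat breakdown, acs-2, atgl-1, cpt-1 and acdh-1 fell amid many genes that did not pass. Of 60 genes for lipases and fatty acid oxidation 4 were lower and 1 was higher, and the median was -0.07. The acyl-CoA synthetase gene acs-2, which responds to fasting, had 4.33, 4.69 and 9.06 CPM in hypodermal depletion, against 166 and 117 CPM in the 24 h controls (-4.64, SE 0.43, adjusted p = 1.96e-11). The carnitine palmitoyltransferase gene cpt-1, which brings fatty acids into mitochondria, had 302, 237 and 207 CPM in hypodermal depletion, against 709.9 and 654 CPM in the 24 h controls (-1.44, SE 0.20). In hypodermal depletion both genes stood below every control library, those of 18 h included (173 and 90.6 CPM for acs-2 and 1312 and 1015 CPM for cpt-1). The fat lipase gene atgl-1 had 62.6, 72.4 and 67.3 CPM in hypodermal depletion, against 204 and 187 CPM in the 24 h controls (-1.53, SE 0.28). Its level was below the hypodermal ones in 18 h control 1 and above them in 18 h control 2. The acyl-CoA dehydrogenase gene acdh-1, which acts in the breakdown of branched-chain compounds, had 293, 332 and 416 CPM in hypodermal depletion, against 709.9 and 682 CPM in the 24 h controls (-1.01, SE 0.20). The gene called higher was another acyl-CoA synthetase gene, acs-1 (1.14), a call lost without 24 h control 2 (adjusted p = 0.357).

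Further falls lay in linked steps of lipid and carbon use. Of 33 genes for the glyoxylate and tricarboxylic acid cycles and their feeder steps 3 were lower: icl-1, pyc-1 and pck-2. The glyoxylate cycle gene icl-1, which lets worms turn fat into sugar, had 756, 763 and 645 CPM in hypodermal depletion, against 3308 and 3450.4 CPM in the 24 h controls and 3502 and 3649 CPM in the 18 h controls (-2.23, SE 0.19, adjusted p = 1.81e-12). The pyruvate carboxylase gene pyc-1 had 436, 403 and 407 CPM in hypodermal depletion, against 809 and 894 CPM in the 24 h controls (-1.04, SE 0.20). The phosphoenolpyruvate carboxykinase gene pck-2 was at -0.63, a call lost without hypodermal library 2, global library 2 or 24 h control 1 (adjusted p from 0.059 to 0.155). Of 18 genes of the methionine cycle and phosphatidylcholine synthesis, 2 were lower. The S-adenosylmethionine synthetase gene sams-1 had 519, 524 and 679.8 CPM in hypodermal depletion, against 1716 and 1206 CPM in the 24 h controls (-1.35, SE 0.20, adjusted p = 3.04e-06). The methionine synthase gene metr-1 had 379, 386 and 404 CPM in hypodermal depletion, against 1009 and 944 CPM in the 24 h controls (-1.33, SE 0.20, adjusted p = 5.11e-06). Its levels in both 18 h controls lay between these ranges. Of 42 genes of fatty acid synthesis and desaturation 3 were lower, sams-1 among them, and the elongase gene elo-1 (-0.77) and the desaturase gene fat-6 (-0.74) lost their calls without hypodermal library 2 (adjusted p = 0.122 and 0.162) or 24 h control 1 (0.127 and 0.133), and fat-6 also without hypodermal library 1, global library 2 or 24 h control 2 (0.0506 to 0.0751).

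Further falls that held whichever library was left out were those of lpin-1, sodh-1 and aqp-7, chosen after their values were seen, and of mxl-3. The phosphatidate phosphatase gene lpin-1, which makes diacylglycerol, had 173, 156 and 141 CPM in hypodermal depletion, against 455 and 513 CPM in the 24 h controls (-1.62, SE 0.21). The gene mxl-3, a Max-like repressor of lysosomal lipases in feeding worms, had 41.4, 40.9 and 41.4 CPM in hypodermal depletion, against 232 and 254 CPM in the 24 h controls (-2.56, SE 0.26, adjusted p = 5.66e-10). The alcohol dehydrogenase gene sodh-1 was at -1.32 (SE 0.22) and the aquaglyceroporin gene aqp-7 at -1.03 (SE 0.21). The linker histone genes hil-3 and his-24 fell as well, to 38.5, 38.2 and 25.9 CPM and 106, 107 and 89.3 CPM in hypodermal depletion, against 204 and 199 CPM and 366 and 308 CPM in the 24 h controls (-2.51, SE 0.29, and -1.73, SE 0.23). Of 29 histone genes, these and his-64 were lower. The his-64 call (-0.87) was lost when any single library of the hypodermal, global or 24 h control groups was left out (adjusted p from 0.0508 to 0.151).

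Among genes that handle foreign compounds, rises outnumbered falls. Of 43 ABC transporters, pumps that export drugs and conjugates, 6 were higher and none was lower, with a median of 0.30. The P-glycoprotein gene pgp-8 (chromosome X, 10859351 to 10864422) had 158, 176 and 168 CPM in hypodermal depletion and was unlisted in all 4 control libraries, at least 21.5-fold above the 24 h controls. Being unlisted there, it could only be called higher. Another P-glycoprotein gene, pgp-1 (chromosome IV, 12591697 to 12599169), which the intestinal list also holds, had 514, 524 and 684 CPM in hypodermal depletion, against 92.3 and 84.6 CPM in the 24 h controls (2.70, SE 0.27, adjusted p = 2e-10). The multidrug resistance protein gene mrp-2 had 736, 825 and 650.0 CPM in hypodermal depletion, against 162 and 203 CPM in the 24 h controls (2.00, SE 0.23). These 3 held whichever library was left out. The other 3 were mrp-3 (1.58), mrp-6 (1.47) and the peroxisomal transporter gene pmp-3 (1.12). Their calls were lost without 24 h control 2 for mrp-3 (adjusted p = 0.127), without 24 h control 1 for mrp-6 (0.312) and without either, or hypodermal library 1 or 2, for pmp-3 (0.075 to 0.31). ABC transporter genes are long, with a median coding length of 3741 bases against 1353 over all tested genes. The longest 20% of genes had a median log2 fold change of 0.11 and the shortest 20% a median of 0.00, and the difference between these bins varied among libraries of a group, from -0.20 to 0.38 (log2) in hypodermal depletion and from -0.32 to 0.06 in the 24 h controls. The part of length in these results was not tested.

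Among the enzymes that modify or conjugate foreign compounds a few members each were called. At an unadjusted p below 0.05, 11 of 29 glutathione transferases were higher and 1 was lower. These counts were 13 and 1 for 34 cytochrome P450 genes and 12 and 2 for 41 UDP-glucuronosyltransferases. Over all 8013 genes they were 710 and 712. Of 29 glutathione transferases, gst-24 and gst-4 were higher and gst-36 was lower. The gene gst-24 had 408, 521 and 353 CPM in hypodermal depletion, against 63.7 and 54.4 CPM in the 24 h controls (2.87, SE 0.28, adjusted p = 1.01e-10). The gene gst-36 was at -1.10 (SE 0.24). The gene gst-4, a common readout of skn-1 activity, had 51.5, 85.1 and 99.7 CPM in hypodermal depletion, against 15.9 and 26.2 CPM in the 24 h controls (1.81, SE 0.47), a call lost without hypodermal library 2 or 3 or either 24 h control (adjusted p from 0.0619 to 0.169). Of 34 cytochrome P450 genes 4 were higher and 1 was lower, and the median was 0.77 against 0.03 over all genes. Without 24 h control 2, 1 was higher. Without hypodermal library 1 or 2 it was 2. The gene cyp-33A1 had 55.4, 47.6 and 49.2 CPM in hypodermal depletion, against 9.55 and 8.05 CPM in the 24 h controls (2.54, SE 0.56), and cyp-13A5 had 67.4, 81.1 and 84.2 CPM in hypodermal depletion, against 25.5 and 16.1 CPM in the 24 h controls (1.94, SE 0.42). Neither call held without 24 h control 2 (adjusted p = 0.103 and 0.137). The other 3 P450 genes were cyp-13A4 (at least 2.87-fold higher), cyp-13A2 (1.53) and cyp-34A8 (-2.70). In both 24 h controls cyp-13A4 was unlisted, so it could only be called higher. In hypodermal depletion cyp-34A8 was listed in library 1 alone, with 13 counts. The cyp-13A4 call was lost without hypodermal library 1 or 2 or either 24 h control (adjusted p from 0.0535 to 0.247), that of cyp-13A2 when any single library of the hypodermal, global or 24 h control groups was left out (0.0502 to 0.279), and that of cyp-34A8 without hypodermal library 3 or 24 h control 1 (0.112 and 0.514). Members of the cyp-13A cluster resemble each other, and how such reads were shared is not given. Of 41 UDP-glucuronosyltransferases ugt-22 (1.15) and ugt-16 (0.97) were higher. The ugt-22 call was lost without 24 h control 1 (adjusted p = 0.156) and that of ugt-16 without hypodermal library 2 or 3, either global library or 24 h control 2 (0.0502 to 0.656).

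Several genes for secreted or little-known proteins rose above controls that stood near or below the floor. The gene pud-3 (chromosome V, 2324510 to 2326827) had 283, 431 and 448 CPM in hypodermal depletion and was unlisted in global depletion and in the controls, at least 49.7-fold above the 24 h controls. Next to it lies pud-4 (chromosome V, 2326678 to 2327262), whose span overlaps that of pud-3. It had 103, 108 and 109 CPM in hypodermal depletion and was listed in 24 h control 2 alone of the control libraries, at 6.04 CPM. How reads in the overlap were shared is not given. Of 7 genes of the SCP/TAPS family of secreted proteins, scl-2 and scl-24 were higher and vap-1, already given among glial genes, was lower. The gene scl-2 (chromosome IV, 13057678 to 13059085) had 143, 147 and 218 CPM in hypodermal depletion, against 19.1 and 16.1 CPM in the 24 h controls (3.26, SE 0.42, adjusted p = 1.39e-07). The gene scl-24 had 48.6, 40.9 and 25.9 CPM in hypodermal depletion and was unlisted in both 24 h controls, at least 4.94-fold higher, a call lost without 24 h control 2 (adjusted p = 0.0627).

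Of 8 zig genes, which encode small secreted immunoglobulin-domain proteins best known for holding axons in place, zig-4 and zig-3 were higher. This list was added after its values were seen. Both genes were unlisted in the 24 h controls, so they could only be called higher, and their count is no result about the family. The gene zig-4 (chromosome X, 7925434 to 7926594) had 89.6, 109 and 106 CPM in hypodermal depletion and was unlisted in both 24 h controls, at least 13.04-fold higher. The gene zig-3 was at least 2.79-fold higher, a call lost without hypodermal library 1 or 2 or either 24 h control (adjusted p from 0.0823 to 0.26). The gene gadr-6 had 50.1, 61.6 and 77.7 CPM in hypodermal depletion and was unlisted in all control libraries, so it was at least 8.10-fold higher than in the 24 h controls. It was among the 10 genes with the largest rises and is in no list.

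**Figure D3:**
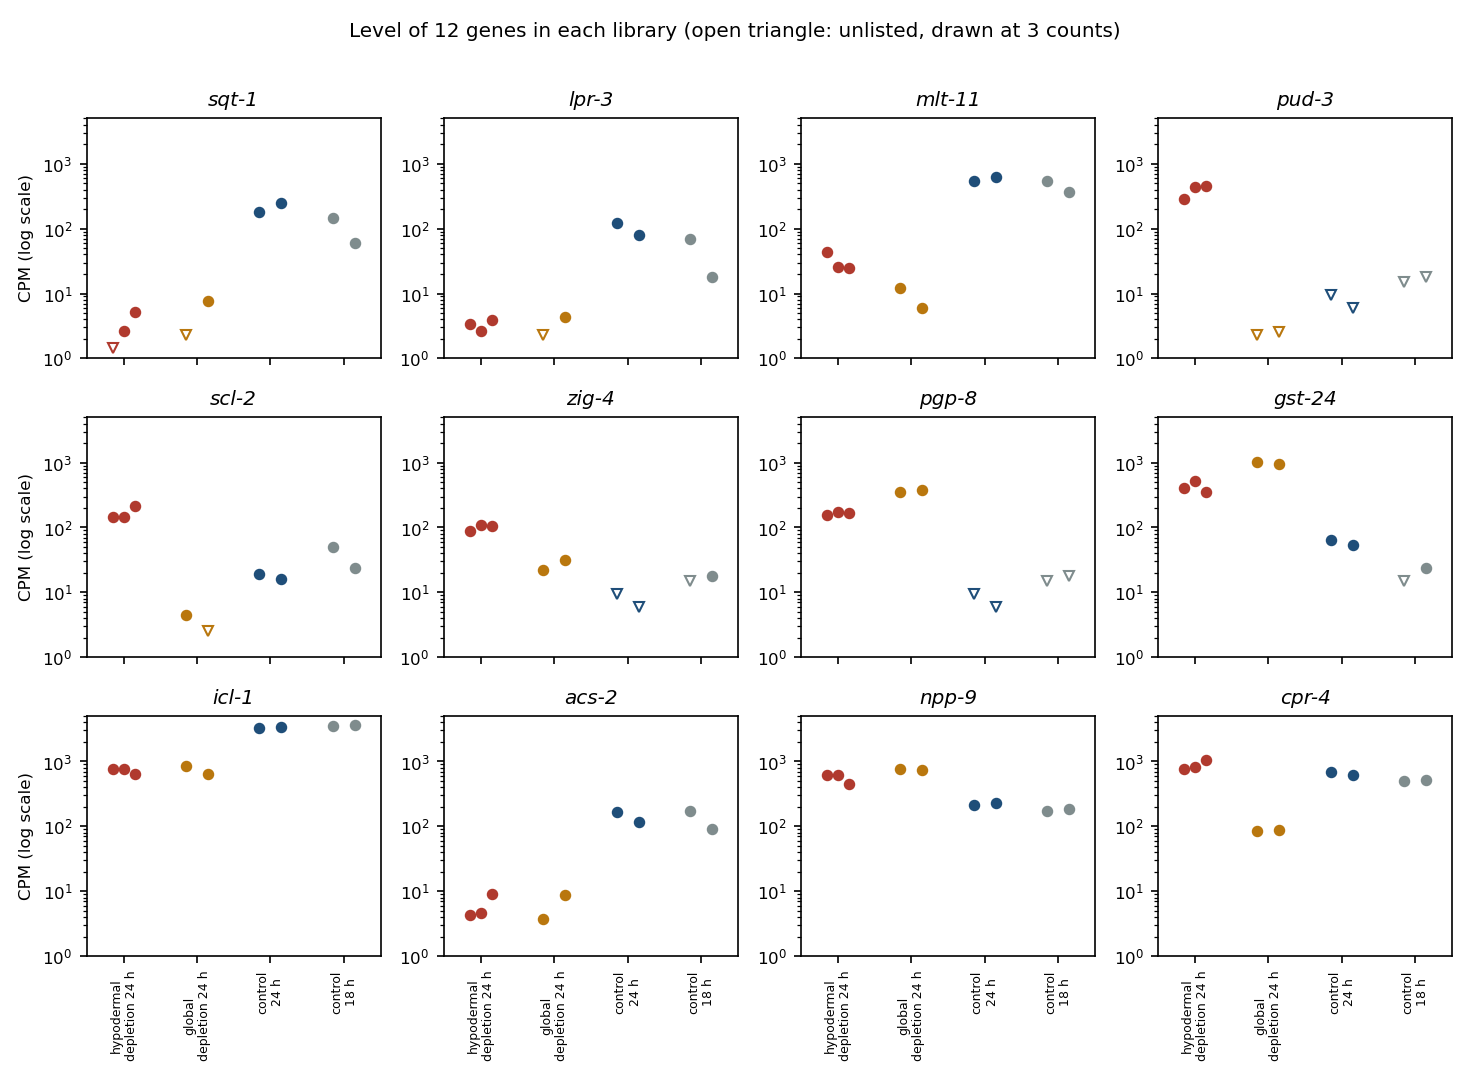
Each panel gives the level of 1 gene in CPM on a log scale in the 3 hypodermal, 2 global, 2 control 24 h and 2 control 18 h libraries, from left to right. Dots are listed values, and open triangles are unlisted genes drawn at 3 counts, so they are upper limits. In hypodermal depletion pud-3, scl-2 and zig-4 stand above the other 3 groups, icl-1 and acs-2 stand near global depletion and below both controls, and cpr-4 stands with the controls and apart from global depletion.

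Genes of the nuclear envelope and pore rose in several members. Of 56 genes of the nuclear pore, envelope and nuclear transport, a list added after values were seen, 12 were higher and 1 was lower, with a median of 0.40. Without 24 h control 2 there were 4 higher, and without 24 h control 1 none was lower. The nuclear pore gene npp-9, the worm RanBP2, had 627, 612 and 454 CPM in hypodermal depletion, against 213 and 225 CPM in the 24 h controls (1.36, SE 0.22, adjusted p = 2.46e-05). The nuclear pore anchor gene npp-12 had 312, 344 and 330.2 CPM in hypodermal depletion, against 143 and 139 CPM in the 24 h controls (1.22, SE 0.23). The nuclear basket gene npp-21 had 648, 586 and 579 CPM in hypodermal depletion, against 232 and 282 CPM in the 24 h controls (1.22, SE 0.22). All 3 held whichever library was left out. The gene mel-28, which seeds pores on chromatin, was at 1.24 and the chromatin-binding gene baf-1 at 3.38, and both calls were lost without 24 h control 2 (adjusted p = 0.141 and 0.075). The inner membrane gene lem-2 (1.13) lost its call without hypodermal library 2 or either 24 h control (0.113 to 0.142). The single fall was ima-1, an importin alpha gene, at -2.06, lost without 24 h control 1 (0.0969). The gene baf-1 had 3 counts in 24 h control 1 and was unlisted in 24 h control 2, so its estimate rests on the value given to unlisted counts. In global depletion against the 24 h controls, 18 genes of this list were higher and 1 was lower. The median coding length in this list was 1874 bases, above that of all tested genes.

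**Figure D4:**
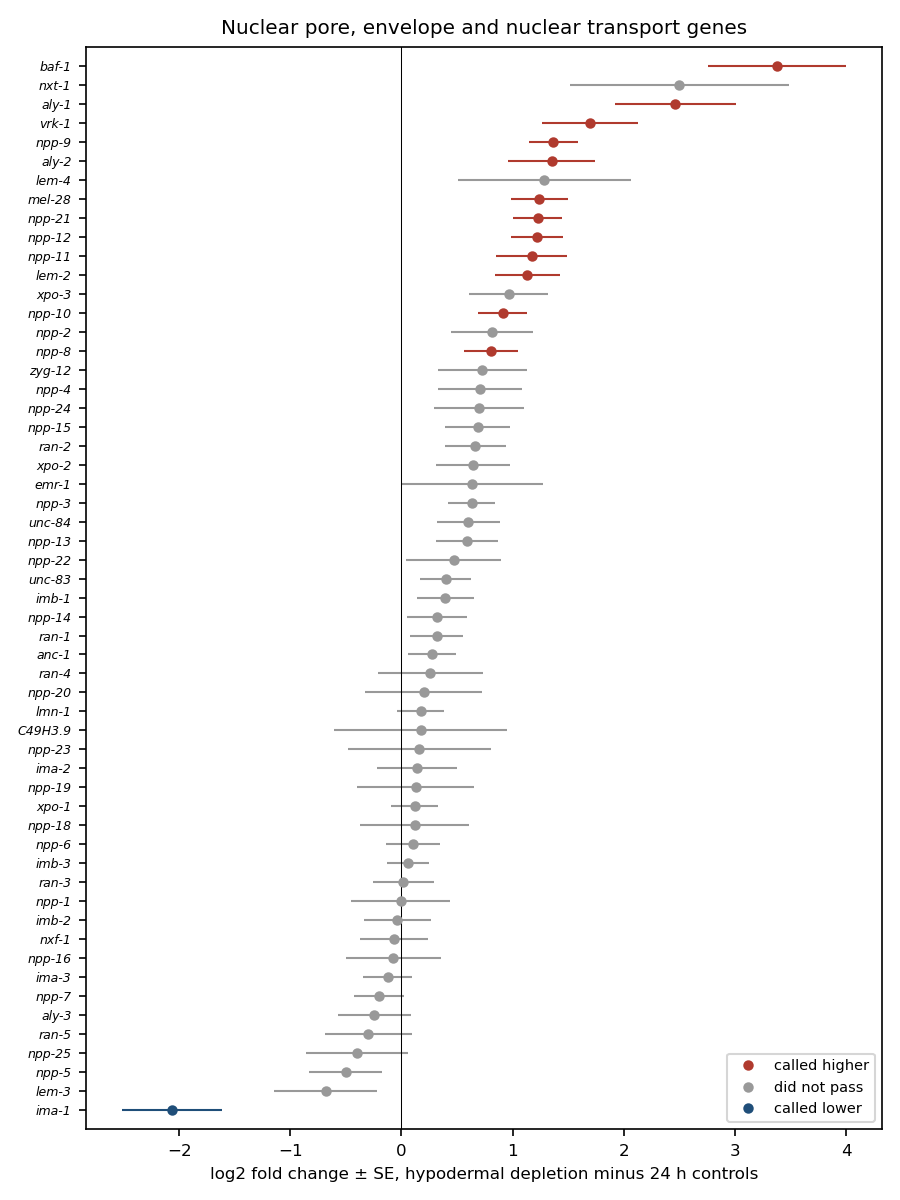
Points are the fitted log2 fold changes of hypodermal depletion over the 24 h controls for 56 genes, with bars of 1 standard error. The 12 genes called higher are red, the 1 called lower is blue and grey genes did not pass. Most points lie right of 0, and the largest called values, such as baf-1, have wide bars.

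None of 6 RNA polymerase I subunits passed against the 24 h controls in edgeR or DESeq2, and 1 had an unadjusted p below 0.05. All 6 estimates were above 0, from 0.34 to 1.10 (log2) with a median of 0.59. Of 47 genes of ribosome biogenesis and the RNA exosome, nog-1 and crn-3 were higher, 4.26% of the list beside 1.66% of all genes called higher. Of the 47 estimates 36 were above 0 and 11 below, with a median of 0.20. An unadjusted p below 0.05 was found for 10 higher and 1 lower. The nucleolar GTPase gene nog-1 had 1116, 1156 and 1055 CPM in hypodermal depletion, against 551 and 552 CPM in the 24 h controls (1.01, SE 0.20, adjusted p = 0.00053). The exonuclease gene crn-3 was at 1.06, a call lost without hypodermal library 2 or 24 h control 2 (adjusted p = 0.168 and 0.342). Of 79 cytosolic ribosomal protein genes rpl-11.1 was called higher and rps-22 lower, with a median of 0.10. The rpl-11.1 call was lost without 24 h control 2, and that of rps-22 without hypodermal library 1 or 2, global library 2 or 24 h control 1. Of 67 mitochondrial ribosomal protein genes none passed in edgeR or DESeq2, with 5 below an unadjusted p of 0.05, and edgeR called 1 lower without 24 h control 2 or either 18 h control. Of 32 proteasome subunits pbs-5 and rpn-5 were called higher. All 32 estimates lay above 0, from 0.19 to 1.37 (log2) with a median of 0.60 (0.55 with DESeq2 size factors), and 18 had an unadjusted p below 0.05. The 2 calls became 0 without hypodermal library 3 or 24 h control 2, 1 without hypodermal library 2 or global library 1, and 5 without either 18 h control. The genes pyr-1, atl-1 and uba-1 were chosen after their values were seen. The gene pyr-1, which starts pyrimidine synthesis, had 631, 673 and 697 CPM in hypodermal depletion, against 191 and 262 CPM in the 24 h controls (1.54, SE 0.22, adjusted p = 2.41e-06). The ATR kinase gene atl-1 had 301, 287 and 198 CPM in hypodermal depletion, against 82.8 and 103 CPM in the 24 h controls (1.49, SE 0.27). The ubiquitin-activating enzyme gene uba-1 had 657, 645 and 741 CPM in hypodermal depletion, against 341 and 284 CPM in the 24 h controls (1.13), a call lost without 24 h control 2 (adjusted p = 0.0593).

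A direct comparison of hypodermal with global depletion shows where their values differed. The place and amount of TIR1 and the extent of RPOA-2 loss cannot be told apart here. The 2 depletions share no libraries, so this contrast does not rest on the controls as an arm. Of 8035 genes tested in the whole series, 352 (4.38%) passed, 238 higher (2.96%) and 114 lower (1.42%) in hypodermal depletion. Without global library 1 or 2 the total was 162 or 161. Where a gene is said to be called in global depletion against the 24 h controls, that comparison called 679 genes (8.45%). It called 81 of the 133 genes higher in hypodermal depletion and 151 of the 272 lower in the same direction, with the same controls in both. Of the collagens it called 28 lower and 2 higher. It called 16 ribosome biogenesis genes and 4 proteasome subunits higher and none of these lists lower.

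Of 20 cysteine and aspartyl proteases 8 were higher in hypodermal than in global depletion and none was lower, with a median log2 difference of 0.45 against 0.01 over all genes. The cathepsin B gene cpr-4 had 752, 829 and 1039.8 CPM in hypodermal and 85.9 and 87.8 CPM in global depletion, a log2 difference of 3.32 (SE 0.23, edgeR adjusted p = 3.38e-15), and the 24 h controls had 688 and 622 CPM. Its relative cpr-1 had 783, 873 and 1127 CPM in hypodermal and 94.2 and 114 CPM in global depletion (3.15, SE 0.24). Against the 24 h controls the hypodermal estimates of these 2 genes did not pass (0.41 and 0.48). For cpl-1, asp-13, npa-1 and dct-16, which were higher in hypodermal depletion than in the controls, the difference from global depletion was 2.20, 3.12, 1.25 and 2.68. The invertebrate lysozyme gene ilys-5 had 204, 277 and 260.3 CPM in hypodermal and 3.02 and 6.89 CPM in global depletion (5.63, SE 0.38), beside 178 and 113 CPM in the 24 h controls. Of 28 intestinal identity genes 8 were higher than in global depletion and spl-1 was lower, the last lost without hypodermal library 2 or global library 2. The gut esterase gene ges-1 was 1.67 higher (SE 0.37), a call lost without global library 1 or 2 (adjusted p = 0.0905 and 0.0606). The intestinal count dropped to 4 without global library 1, and to 5 without global library 2 or hypodermal library 3.

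Genes of the secretory pathway were also higher than in global depletion. None of 41 endoplasmic reticulum folding genes passed against the 24 h controls in edgeR or DESeq2 (median 0.03, with 3 below an unadjusted p of 0.05, and 1 called lower without 24 h control 2), and 14 were higher and none lower than in global depletion, or 9 without either global library. The protein disulfide isomerase gene pdi-2, which also hydroxylates collagens, had 818, 863 and 975 CPM in hypodermal and 361 and 294 CPM in global depletion (1.43, SE 0.20, adjusted p = 1.63e-06), and the 24 h controls had 1108 and 869.7 CPM. The translocon-associated gene trap-1 had 202, 182 and 281 CPM in hypodermal and 61.1 and 41.3 CPM in global depletion (2.09, SE 0.27), and the 24 h controls had 417 and 238 CPM. Fatty acid oxidation genes were higher than in global depletion in 16 of 60 cases and lower in none, with 10 higher without global library 1. The acdh-1 gene, lower than in the controls, had 39.96 and 51.7 CPM in global depletion and stood 2.91 above it on the log2 scale (SE 0.24). The metr-1 difference was 0.74, lost without hypodermal library 2 or 3 or global library 2 (adjusted p from 0.0566 to 0.731).

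Other genes were lower in hypodermal than in global depletion. Of 11 immune genes that respond to p38 or bZIP factors, T24B8.5, C17H12.8, dod-24, irg-6 and irg-4 were lower, with a median log2 difference of -1.26 over the list. The gene C17H12.8, a target of the p38 pathway, had 22.6, 26.1 and 27.2 CPM in hypodermal and 228 and 231 CPM in global depletion (-3.19, SE 0.27, adjusted p = 9.79e-13), and the 24 h controls had 25.5 and 28.2 CPM. The gene dod-24 differed by -2.28, and irg-6 by -2.19, and irg-6 lost this call without hypodermal library 1 or global library 2 (adjusted p = 0.055 and 0.0773). Against the 24 h controls irg-6 was the only gene of this list called lower (-2.08), and not without hypodermal library 1 or 3 or 24 h control 1 (0.0876 to 0.374). The lectin gene clec-67 had 1079.6 and 929 CPM in global depletion, so that hypodermal minus global depletion was -2.74 (SE 0.20), and hypodermal depletion stood below the 24 h controls too. The clec-52 gene differed by -2.19 (SE 0.24). These lists went both ways. Of 41 lectins 5 were higher and 5 lower than in global depletion, with a median log2 difference of 0.38. For 43 ABC transporters the counts were 7 higher and 3 lower, and for 29 glutathione transferases 5 higher and 2 lower. Without hypodermal library 2, 3 lectins and 3 transferases were higher, and without hypodermal library 1, 4 transporters were higher. The genes pgp-8 and gst-24, both higher than in the controls, stood lower than in global depletion, where they had 348 and 377 CPM and 1028 and 967 CPM, with differences of -1.12 (SE 0.21) and -1.22 (SE 0.20). The same held for nog-1 (-0.90, SE 0.18), whose level was 2101 and 2034 CPM in global depletion, and for atl-1 (-0.77), the last lost without hypodermal library 3 or either global library (adjusted p from 0.136 to 0.247). Of 47 ribosome biogenesis genes dis-3, wdr-12, nog-1 and pro-2 were lower than in global depletion. The count of 4 was 2 without global library 1, 1 without global library 2, 7 without hypodermal library 1 and 8 without either 24 h control. Over the 47 genes the median log2 difference was -0.49.

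Cuticle collagens and other secreted or matrix genes differed from global depletion in both directions. Of 63 collagens, col-80, col-160, col-107, col-39, col-98, col-147, col-42 and col-103 were lower than in global depletion and col-149, col-76 and sqt-3 were higher, with a median log2 difference of -0.17. The 8 lower became 3 without global library 1, 4 without global library 2 and 5 without hypodermal library 3. The 3 higher became 0 without global library 1 and 1 without hypodermal library 1 or 2 or global library 2. Of 17 apical matrix genes fbn-1, noah-1, noah-2 and cut-2 were higher than in global depletion and none was lower. The gene pud-3 stood at least 159.8-fold and pud-4 at least 43.9-fold above global depletion, where neither was listed. The gene scl-2 had 143, 147 and 218 CPM in hypodermal depletion and was listed in global library 1 alone of the 2, at 4.52 CPM (5.83, SE 0.45), and zig-4 had 21.9 and 31.9 CPM there (1.92, SE 0.33). The zig-3 difference was 3.13, lost without global library 2 (adjusted p = 0.158). Of 19 molting genes 7 were higher than in global depletion, or 4 without global library 1 and 2 without global library 2. The gene sym-1 had 47.7, 40.2 and 44.02 CPM in hypodermal and 10.6 and 4.30 CPM in global depletion (2.52, SE 0.40), and mlt-11 had 12.1 and 6.03 CPM in global depletion (1.80), the call of mlt-11 being lost without global library 2 (adjusted p = 0.0955). The gene mua-3, higher than in the controls, had 141 and 147 CPM in global depletion (1.76, SE 0.23).

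**Figure D5:**
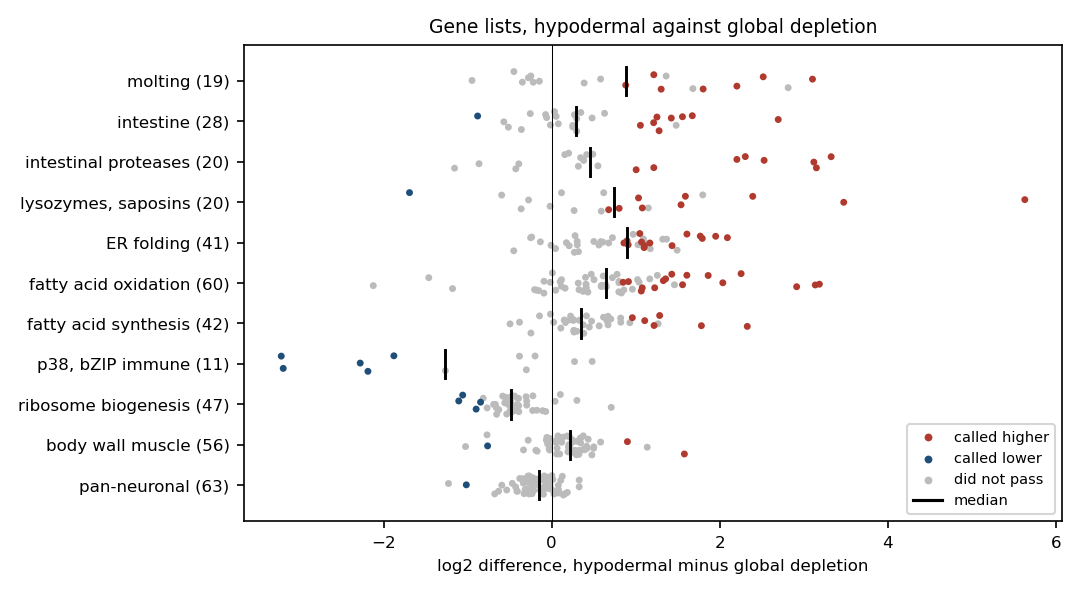
Each point is a gene, placed by its log2 difference of hypodermal minus global depletion, with red and blue for genes called higher and lower, grey for those that did not pass and black bars for the medians. The number of tested genes is in brackets. Red points lie in the molting, intestinal, lysozyme, endoplasmic reticulum (ER) and fatty acid lists, and blue points lead the immune list.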

How the data were processed

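Total RNA of whole worms was freed of ribosomal RNA with RNase H and made into libraries with a SMARTER mRNA-Seq kit, per the labels' protocols. The authors deposited raw counts per gene over coding sequence in build WBcel235, per the file headers and the submitters' processing notes. Those notes list DESeq2 too. Which aligner and counting tool were used, and whether strand was, is not given in the sources used here, so overlapping genes, as 98 of the included genes are, and near-identical copies are uncertain. No count below 3 is listed. The file holds 10 libraries, of which 9 match a sample by the labels and 1 was not used. Totals ran from 166455 to 2134185 counts over the 9 libraries, and a count of 3 sets the floor of each.

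Unlisted counts entered as 1, and library sizes were the totals of listed counts. edgeR 4.0.16 in R 4.3.3 (TMM, filterByExpr set to at least 10 counts and a total of at least 15, robust quasi-likelihood fit) was fitted to all 9 libraries with 1 term per group. A call is a Benjamini-Hochberg adjusted p below 0.05 over all 8035 genes tested. The same fit gave hypodermal minus global depletion. CPM values carry the TMM factors. A fold against a group with no listed library is set against 3 counts per library in that group. The fit was tested on 5 simulated sets with 200 changed genes each. The changed genes were drawn from those with a base level of at least 10 CPM, and the simulated libraries were independent. The fit recovered 24.4% of 2-fold and 74.6% of 4-fold changes, with a mean of 3 false calls, so many 2-fold changes can go uncalled. Recovery at lower levels was not measured. The labels tie replicate numbers to no shared batch, so the libraries were not treated as paired.

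The members and the gene lists were chosen with earlier results of these data known. Of the 68 lists, 4 (nuclear pore and envelope, zig genes, cadherins, RNA polymerase II) were added after their values were seen. Named genes are rpoa-2 and col-10, some of the 10 largest rises and falls (at least 10 CPM in 1 group, no overlap, no histones), up to 4 called members of each list with the largest change, and the leading genes that differ from global depletion. The following were instead chosen after their values were seen: acdh-1, aqp-7, atl-1, C17H12.8, clec-52, cpr-1, cpr-4, cyp-13A2, dct-16, dex-1, dod-24, dpy-17, ges-1, ilys-5, lem-2, lpin-1, mel-28, mrp-6, mua-3, npa-1, npp-9, npp-12, npp-21, pmp-3, pyr-1, qua-1, sodh-1, sym-1, trap-1 and uba-1. The alternatives were other values for unlisted counts, other scalings, filters and library totals, the 2 groups by themselves, DESeq2 1.42.0, thinned libraries, each library left out and the replicate number as a block.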

Additional observations from a re-analysis of the deposited data

Results flagged for a closer look

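The genes below were marked because the difference between hypodermal and global depletion itself passed the edgeR test (adjusted p below 0.05), among the genes named in the text. Each difference is hypodermal minus global depletion on the log2 scale. The depletions were set against the same 24 h controls, so their own fold changes, where given side by side, share those libraries.

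Some genes were called in opposite directions against the 24 h controls. Higher in hypodermal and lower in global depletion were scl-2 (difference 5.83, with 3.26 in hypodermal and -2.57 in global depletion), asp-13 (3.12, with 1.19 and -1.93), dct-16 (2.68, with 1.33 and -1.35), cpl-1 (2.20, with 1.03 and -1.17) and mua-3 (1.76, with 0.91 and -0.85). The opposite held for clec-67 (-2.74, with -1.32 in hypodermal and 1.42 in global depletion) and clec-52 (-2.19, with -1.12 and 1.07). Of these calls against the controls in hypodermal depletion, those of asp-13, cpl-1, mua-3 and clec-52 were lost without a single library, as given above.

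Genes with a higher level in hypodermal depletion that were not called in global depletion against the controls were pud-3 (8.67) and pud-4 (6.82), whose differences rest on the value given to unlisted counts, zig-3 (3.13), ugt-22 (1.78), gst-4 (1.53), cyp-13A2 (1.27), npa-1 (1.25), mrp-3 (0.92) and spp-17 (0.68). The gene zig-4 (1.92) was higher than the controls in both. Several of these differences were lost without single libraries: gst-4 without hypodermal library 2 or 3 or global library 2 (adjusted p from 0.0646 to 0.253), cyp-13A2 when any hypodermal or global library was left out (0.0739 to 0.631), mrp-3 when any hypodermal library or global library 2 was left out (0.0749 to 0.757), spp-17 without hypodermal library 2 or 3, either global library or either 24 h control (0.0637 to 0.467) and zig-3 without global library 2 (0.158).

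Lower than the controls in global depletion, and not called or less low in hypodermal depletion, were ilys-5 (5.63), cpr-4 (3.32), qua-1 (3.19), cpr-1 (3.15), mlt-10 (3.10), acdh-1 (2.91), sym-1 (2.52), trap-1 (2.09), mlt-11 (1.80), pdi-2 (1.43) and metr-1 (0.74). The hedgehog-related gene qua-1 had 8.67, 10.7 and 5.18 CPM in hypodermal depletion and was unlisted in both global libraries, at least 3.38-fold higher, beside 35.02 and 56.4 CPM in the 24 h controls. The molting gene mlt-10 had 11.6, 6.70 and 3.88 CPM in hypodermal depletion and was likewise unlisted in both global libraries, at least 3.05-fold higher, beside 47.8 and 48.3 CPM in the 24 h controls. The fall of qua-1 against the 24 h controls was lost without 24 h control 2 (0.139). Its difference from global depletion was lost without hypodermal library 1 or 2 or either global library (adjusted p from 0.0723 to 0.265), that of mlt-10 without hypodermal library 1 or either global library (0.161 to 0.272), that of mlt-11 without global library 2 (0.0955) and that of metr-1 without hypodermal library 2 or 3 or global library 2 (0.0566 to 0.731). For ges-1 (1.67), called in neither depletion against the controls, the difference was lost without global library 1 (0.0905) or 2 (0.0606).

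Lower in hypodermal than in global depletion were also atl-1 (-0.77), nog-1 (-0.90), pgp-8 (-1.12) and gst-24 (-1.22), each higher than the controls in both, and irg-6 (-2.19), dod-24 (-2.28) and C17H12.8 (-3.19). The atl-1 difference was lost without hypodermal library 3 or either global library (adjusted p from 0.136 to 0.247) and that of irg-6 without hypodermal library 1 (0.055) or global library 2 (0.0773). The causes of these differences were not tested.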

How the results depend on the processing

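The count of 405 genes called ran from 254 to 454 as single libraries were left out, with 65 to 160 higher and 179 to 294 lower, and the count of 352 against global depletion ran from 161 to 419. With unlisted counts as 0 there were 249 calls, 133 of them lower, and 46.6% of the calls were higher, against 32.8% in the fit reported. Thinning every library to the smallest total left 135 calls (48 higher and 87 lower) and 131 against global depletion. Fewer genes, 3648, could be tested there. With a replicate block, for numbers that the labels tie to no shared batch (correlations of deviations between libraries of the same number of -0.136 and 0.0445 for hypodermal with 24 h control libraries and 0.209 and 0.131 for hypodermal with global libraries), there were 268 calls, 86 of them higher, and 211 against global depletion. The other alternatives, unlisted counts as 2, DESeq2 (356), DESeq2 size factors (399), totals as the only scaling (402), no filter (399), genes listed in every library (347), the 2 groups by themselves (370) and filled library totals (413, chosen after seeing the data), stayed within 1.5 times of these counts. Of 101 named genes called against the 24 h controls, 50 were called whichever library was left out and 46 under every alternative in which they could be tested, 34 of them in all 20. Unlisted counts as 0 ended 23 of these calls, the block 24 and thinning 26. Of 36 named genes called against global depletion, 24 were called whichever library was left out. Leaving out single libraries, the log2 fold change of rpoa-2 ran from -0.0237 to 0.69 and that of unc-54 from -0.0538 to 0.29, with both low ends without 24 h control 1, and neither was called in the fit reported. The cause was not tested. Depth limits the 24 h controls most: at 3 counts they do not list a gene below 9.55 or 6.04 CPM, so rises of genes near those levels are bounds.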

Other observations

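Lists not described above held few calls against the 24 h controls, and most of these changed as single libraries were left out. Of 72 genes of autophagy, lysosomes and the vacuolar ATPase, epg-9, atg-9, lgg-1 and unc-51 were called lower, and 2 were lower without hypodermal library 1 or 2 or 24 h control 1. Of 112 nuclear hormone receptors, nhr-43, nhr-21, nhr-19 and nhr-88 were lower and nhr-62 was higher. The 4 became 1 without hypodermal library 2 or 24 h control 2 and 2 without hypodermal library 3, and nhr-62 was lost without 24 h control 2. Of 22 cytosolic chaperones, hsp-16.41 and hsp-43 were higher and dnj-19 was lower, and neither rise was called without hypodermal library 1 or 24 h control 2. The dnj-19 call was lost without hypodermal library 2. Of 9 RNA polymerase II subunits, rpb-2 and ama-1 were higher and rpb-6 was lower, and none of the 3 was called without hypodermal library 2 or 24 h control 1. Of 11 cadherins, cdh-7, cdh-10 and cdh-12 were lower, and none was lower without 24 h control 2 and 1 without hypodermal library 1 or 2. Of 10 epidermal antimicrobial peptide genes, fipr-21 and nlp-24 were lower, with 1 lower without 24 h control 1.

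In the respiratory chain isp-1 and atp-2 were lower among 71 genes, in the mitochondrial stress response timm-17B.1 and atfs-1 among 15, and in growth signalling mxl-3 and mdl-1 among 32. Each of these counts became 1 without hypodermal library 2 or 3, and the first also without 24 h control 1 or 18 h control 2, the second also when any global or 24 h control library was left out. Of 19 lipid-binding proteins the lipocalins lpr-3, lpr-4, lpr-5 and lpr-6 were lower. Single calls fell on lin-42 among 17 molt timing genes and icl-1 among 21 daf-16 targets, both kept whichever library was left out. Single lower calls fell on prdx-2 (25 antioxidant genes), ceh-38 (37 homeobox genes), sdz-24 (37 F-box, MATH and BTB genes) and cyb-3 (77 replication and cell cycle genes), and single higher calls on Y65B4A.6 (39 translation factors), teg-4 (54 splicing genes) and ttr-47 (27 transthyretin-like genes). All 7 counts became 0 without hypodermal library 2. The same held without 24 h control 1 for all but teg-4, without hypodermal library 1 for sdz-24, cyb-3, teg-4 and ttr-47, without hypodermal library 3 for ceh-38, cyb-3, teg-4 and ttr-47, without either global library for cyb-3, teg-4 and ttr-47, and without 24 h control 2 for teg-4 and ttr-47. In the lists of collagen-modifying enzymes (8 genes), epidermal osmotic response (7), major sperm proteins (3), aminoacyl-tRNA synthetases (31), glycolysis and trehalose (31) and chemoreceptors (6), edgeR called none. Unadjusted p-values below 0.05 numbered 0, 2, 0, 2, 5 and 0 in these lists, in the same order, and DESeq2 called 1 glycolysis gene lower and none in the others. In edgeR 2 glycolysis genes were lower without hypodermal library 3 or 24 h control 2 and 1 without either 18 h control, 1 aminoacyl-tRNA synthetase was higher without hypodermal library 1, and 1 collagen-modifying enzyme was higher without 24 h control 2.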
